A study of Mus musculus with 4 samples.

Results

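Glucose-stimulated insulin secretion was followed here through 9 genes of the beta cell: Slc2a2 for glucose sensing, Kcnj11 and Abcc8 for the ATP-sensitive potassium (KATP) channel, Cacna1c and Cacna1d for the calcium channel, and Syt7, Snap25, Stx1a and Vamp2 for granule fusion. The genes were taken by symbol for their place in this chain. No measured value enters the choice rule, but earlier results of these data were known when it was made. They were looked up among the 9225 distinct gene IDs that the authors listed as related to a differential peak of N6-methyladenosine (m6A), a methyl mark on RNA. The comparison was between MIN6 cells transfected with a GR expression vector and MIN6 cells transfected with a control vector. MIN6 is a mouse insulinoma line (C57BL/6, per the labels) that serves as a model of beta cells. GR is not spelled out in the labels and is taken here to be the glucocorticoid receptor. Each dish received 10 µg of plasmid, and RNA was taken 24 hours later, so the cells of each arm are a transiently transfected culture. An m6A immunoprecipitation (IP) library and an input library were made from GR cells, and the same pair from control cells, 4 libraries in all.

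Since each arm had a single IP library and a single input library, there was no replicate check and no test was run. The deposited tables compare GR with control as a whole, without values for single libraries, so depth, RNA level, and the direction, size and position of any peak of these genes are unknown. The gene table has 17052 lines, each with a gene ID, a symbol and the names of protein domains. The meaning of a line is left unexplained there, and a number of lines is therefore given as a description and not as an amount of m6A. Of 7 beta-cell markers looked up, Slc30a8 (6 lines), Mafa (4), Nkx6-1 (3), Pdx1 (2) and Ins1 (1) were listed, and Ins2 and Iapp were absent. Of 12 markers of other islet, exocrine and duct cells, 1 was listed, the glucagon gene Gcg, on 1 line. Over all protein-coding genes, 25.2% were listed. Being listed is not a level of expression, so these counts cannot check which cell type was used.

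In a beta cell, glucose enters through facilitative transporters and is metabolised, and the rise in ATP relative to ADP closes the KATP channel. The membrane then depolarises, voltage-gated calcium channels open, and calcium binds synaptotagmins on the insulin granule. SNARE proteins of the granule and of the plasma membrane zip together and fuse the membranes, which releases insulin. Methylation of adenosine in messenger RNA is known to affect RNA stability and translation.

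Of the 9 genes, 5 were listed (Slc2a2, Kcnj11, Syt7, Snap25 and Vamp2) and 4 were absent (Abcc8, Cacna1c, Cacna1d and Stx1a). The share of 55.6% stands beside 25.2% of the 21900 protein-coding genes of the reference. That 25.2% covers every such gene, whether or not MIN6 cells transcribe it, because no RNA level is given. Whether the 9 genes exceed the share among transcribed genes was not tested. The 5 listed genes had 12 lines together, but each had 1 distinct line, any further lines being identical copies. Their median was 3 lines, copies included, against a median of 1 over all listed protein-coding genes. Among those listed genes, 55.5% had 1 line, 25.1% had 2 and 19.4% had 3 or more.

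**Figure D1:**
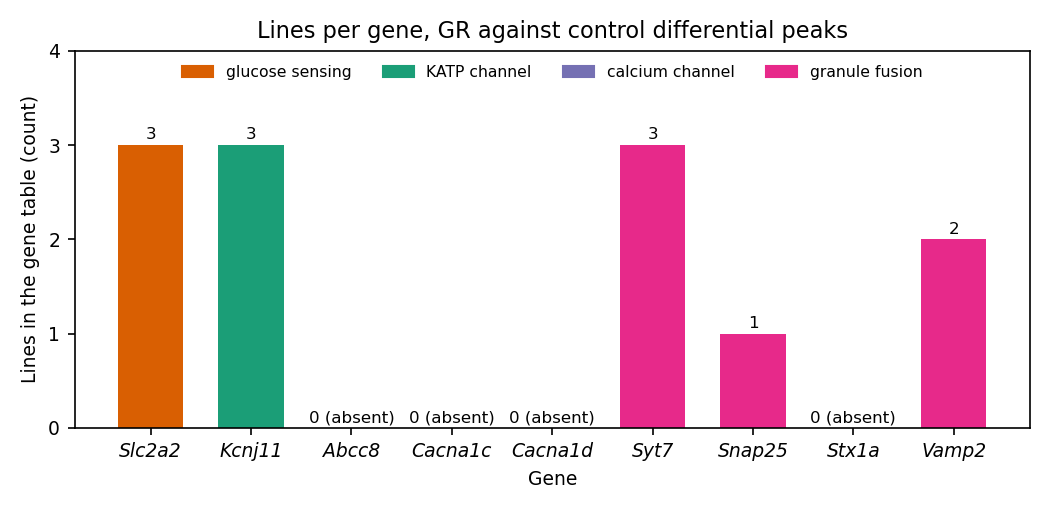
Number of lines in the gene table (vertical axis, count) for each of the 9 genes, coloured by step. Slc2a2, Kcnj11 and Syt7 had 3 lines, Vamp2 had 2, Snap25 had 1, and Abcc8, Cacna1c, Cacna1d and Stx1a had none.

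Listed genes were counted per step, beside the 25.2% listed over all protein-coding genes. Sensing had its 1 gene on 3 lines. The KATP channel had 1 of its 2 genes, on 3 lines. The calcium channel had 0 of its 2 genes. Granule fusion had 3 of its 4 genes, with 6 lines together. Taken as 1 group, the channels had 1 of 4 genes listed, near the share of all protein-coding genes. With at least 2 lines, granule fusion had 2 of its 4 genes and the counts of the other steps did not change, beside 11.2% of all protein-coding genes. With so few genes in a step these counts are a description, and whether the steps differ was not tested.

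For sensing, Slc2a2 (ENSMUSG00000027690) encodes GLUT2, the main glucose transporter of the rodent beta cell. It spans bases 28697903 to 28728361 of chromosome 3 in GRCm38.p6, the assembly behind mm10. It was listed on 3 lines, identical to each other, and the domains named there include "Glucose transporter, type 2 (GLUT2)" and "Major facilitator superfamily domain". Of the 12 facilitative glucose transporter genes (Slc2a), 5 were listed (41.7%), beside 25.2% of all protein-coding genes. Slc2a6 had 4 lines, and Slc2a1, Slc2a7 and Slc2a8 had 1 line each. Slc2a3 and Slc2a4 were among the 7 without a line.

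For the KATP channel, Kcnj11 (ENSMUSG00000096146) encodes Kir6.2, the subunit that forms the pore. It is a short gene, 3.83 kb on chromosome 7 (46097123 to 46100952), and had 3 lines that name inwardly rectifying potassium channel domains and an immunoglobulin E-set. Abcc8 encodes SUR1, the regulatory subunit that binds sulfonylurea drugs, and had no line. The genes of these partner subunits lie next to each other, 3570 bases apart, with Abcc8 at 46104523 to 46180039. Neither Nomo1, the protein-coding gene on the other side of Kcnj11, nor Ush1c, the one beyond Abcc8, was listed, so Kcnj11 was the only listed one of these 4 neighbouring protein-coding genes. Of 15 inward rectifier genes (Kcnj), 4 were listed (26.7%), near the 25.2% of all protein-coding genes. Besides Kcnj11 these were Kcnj5, Kcnj6 and Kcnj14, on 1 line each. Of 10 genes of ABC subfamily C, only Abcc10 was listed, on 2 lines. Kcnj8 and Abcc9, which encode KATP subunits of vascular smooth muscle, were both absent.

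For the calcium channel, neither Cacna1c, which encodes the pore of Cav1.2, nor Cacna1d, which encodes that of Cav1.3, had a line. Both are long genes, of 610.1 kb on chromosome 6 (118587240 to 119197384) and 451.2 kb on chromosome 14 (30039941 to 30491156). Each overlaps other genes, and some of these were listed. Cacna1c overlaps 7 genes, of which the decapping gene Dcp1b and the pseudogene Gm18981 had 1 line each. Cacna1d overlaps 9 genes, of which the decapping gene Dcp1a had 1 line. Neither the strand of the libraries nor the position of a peak is given in the sources used here. Whether any of these peaks falls in a stretch shared by overlapping genes is therefore unknown.

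Of 26 genes for the pore, alpha2delta, beta and gamma subunits, 4 were listed (15.4%), against 25.2% of all protein-coding genes. These were Cacna1b, the pore of the N-type channel, on 2 lines, the beta subunit Cacnb3 on 3 lines, and the gamma subunits Cacng1 and Cacng5 on 3 and 2 lines. All 4 had at least 2 lines, and with that minimum the order turned round, with 15.4% of the family listed against 11.2% of all protein-coding genes. None of the pore genes for P/Q-type (Cacna1a), R-type (Cacna1e) and T-type (Cacna1g, Cacna1h, Cacna1i) channels was listed under its own ID, nor was any alpha2delta gene.

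The share of genes listed differed with gene span. The median span of the calcium channel family was 104.4 kb, and in the longest of 10 equal classes of protein-coding genes, the class of Cacna1c and Cacna1d, 17.4% were listed. In the class of Kcnj11 and Vamp2 (1.53 to 4.16 kb) it was 28.7%, and in the shortest class 5.02%. Syt7, Snap25 and Abcc8 share a class (23.8% listed) in which 2 of the 3 were listed, and Slc2a2 and Stx1a share another (26.6%) in which 1 of the 2 was. The part of gene span in the count of calcium channel genes was not tested.

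**Figure D2:**
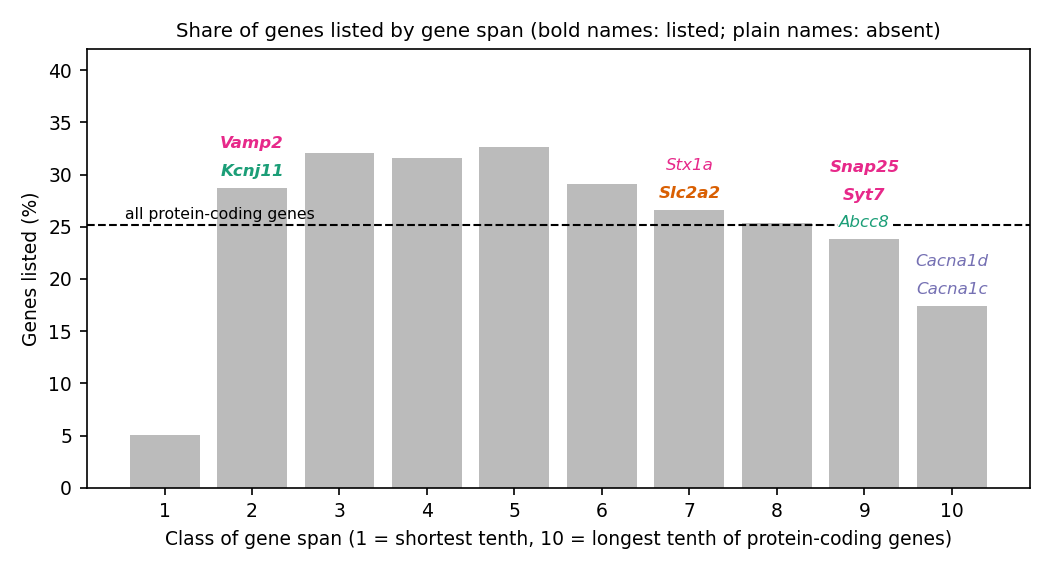
Share of protein-coding genes listed (vertical axis, %) in 10 equal classes of gene span, with the 9 genes written above their class and the dashed line at 25.2% for all protein-coding genes. The share was 28.7% in the class of Kcnj11 and Vamp2 and 17.4% in the class of Cacna1c and Cacna1d.

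For fusion, Syt7 (ENSMUSG00000024743) encodes a synaptotagmin that senses calcium with high affinity and acts in insulin granule exocytosis. It spans 64.4 kb on chromosome 19 (10388802 to 10453181) and had 3 lines, which name both of its calcium-binding C2 domains. The next gene, Lrrc10b, starts 2189 bases beyond Syt7 and had 4 lines. Of 17 synaptotagmin genes, 7 were listed (41.2%), beside 25.2% of all protein-coding genes. Syt2 had 3 lines, Syt4 and Syt11 had 2, and Syt9, a calcium sensor of insulin-secreting cells, Syt13 and Syt16 had 1, whereas Syt1 and Syt5 were absent.

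The core SNARE complex of granule fusion is made of syntaxin 1A, SNAP-25 and VAMP2, and its genes were listed in part. Vamp2 (ENSMUSG00000020894), for the SNARE of the granule membrane, had 2 lines. It spans 3.85 kb on chromosome 11 (69088528 to 69092381), 2726 bases from the clock gene Per1, which had 1 line. Snap25 (ENSMUSG00000027273), for a SNARE of the plasma membrane, had 1 line, which names a "Target SNARE coiled-coil homology domain", and spans 69.0 kb on chromosome 2 (136713439 to 136782428). Stx1a, for the other plasma membrane SNARE, was absent. It lies on chromosome 5 (135023482 to 135051100), 1856 bases from Bud23, which had 3 lines.

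Counts for the SNARE families stand beside 25.2% of all protein-coding genes listed, or 11.2% with at least 2 lines. Of 7 VAMP genes with an ID in the reference, 4 were listed (57.1%), namely Vamp1, Vamp2, Vamp3 and Vamp8, each on 2 lines. Vamp7 had no ID there and was not counted. Of the 4 genes of the SNAP25 family, 3 were listed, Snap25, Snap29 and Snap47, each on 1 line, and Snap23 was not. Of 15 syntaxin genes, 2 were listed (13.3%), Stx2 on 2 lines and Stx8 on 1, and Stx3 and Stx4a, which act at the plasma membrane, were absent along with Stx1a. With at least 2 lines the shares were 57.1% for VAMP genes, 0% for the SNAP25 family and 6.67% for syntaxins. Whether syntaxins differ from the other SNAREs was not tested.

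**Figure D3:**
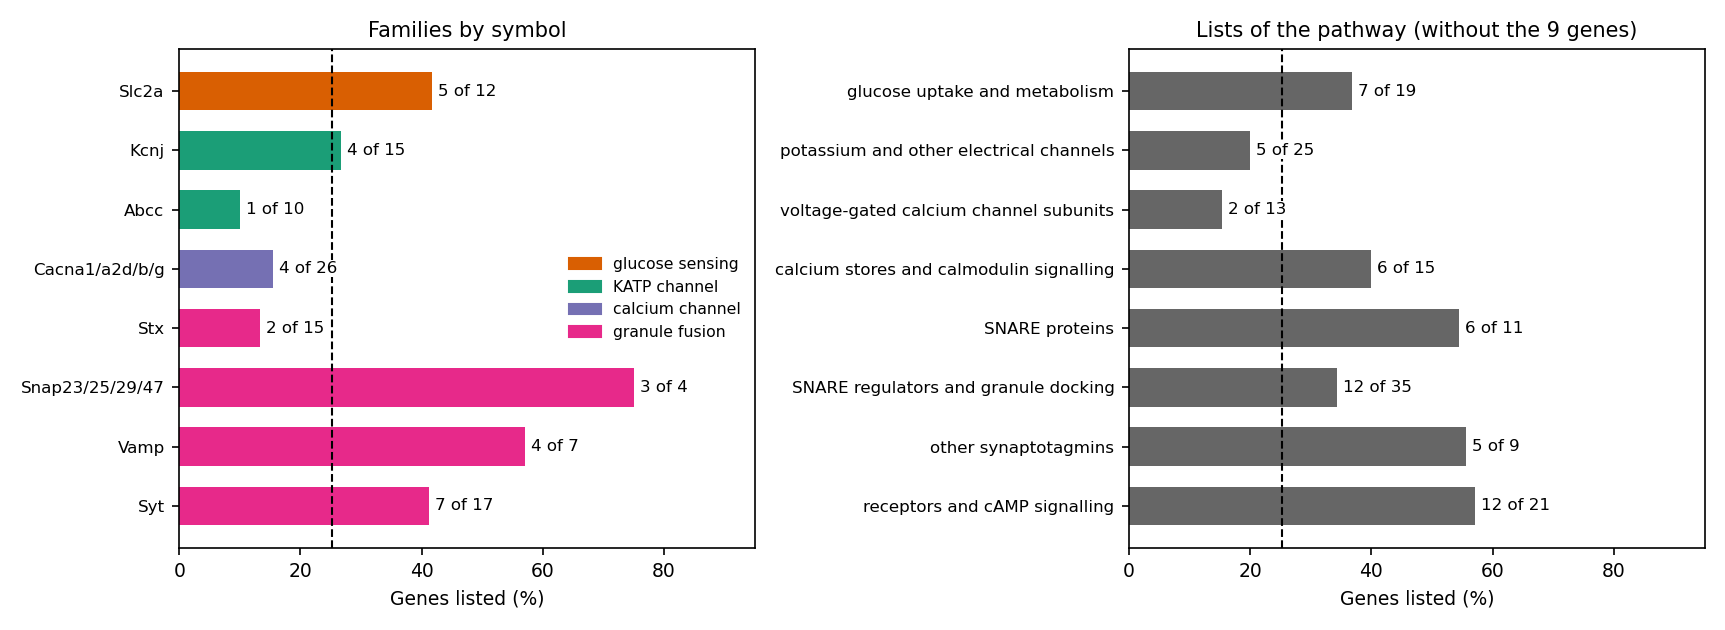
Share of genes listed (horizontal axis, %) in the gene families of the 9 genes (left, coloured by step) and in 8 lists of other genes of the pathway (right); the dashed line is the 25.2% of all protein-coding genes and the labels give listed genes of matched genes. VAMP genes were at 57.1% and calcium channel genes at 15.4% among the families.

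The other genes of the pathway were described by 8 lists that leave out the 9 genes. Of 149 genes, 148 had an ID in the reference and 55 were listed (37.2%), against 25.2% of all protein-coding genes. The latter share again includes genes that the cells may not transcribe. In glucose uptake and metabolism, 7 of 19 were listed (36.8%), among them G6pc2, Gpd2, Pfkm, Pfkp and Pkm on 1 line each. Gckr, Glud1, Hk1, Hk2, Ldha and Me1 were among the absent. Of the 19, 1 had at least 2 lines (5.26%, against 11.2% of all protein-coding genes), so the share above background held with 1 line only. In the list of potassium and other electrical channels 5 of 25 were listed (20%), each on 1 line, among them Kcnh2, Kcnh6 and Kcnj6. Abcc9, Kcna5, Kcnc1, Kcnj8, Kcnk16 and Kcnk3 were among the absent. Of 13 calcium channel subunits besides Cacna1c and Cacna1d, 2 were listed (15.4%), Cacnb3 and Cacna1b.

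Calcium stores and calmodulin signalling had 6 of 15 genes listed (40%). Calm3, a calmodulin gene, had 2 lines, and Atp2a2 and Atp2a3, the calcium pumps of the endoplasmic reticulum, Calm2, Camk2b and Stim1 had 1. Camk2a, Camk2d, Camk2g, Itpr1 and Itpr2 were among the absent. With at least 2 lines, 1 of the 15 was left (6.67%), below the 11.2% of all protein-coding genes. Of 11 other SNARE genes with an ID, 6 were listed (54.5%), as given above by family. Of 35 SNARE regulators and docking factors, 12 were listed (34.3%), led by Cplx2 with 5 lines, Pclo with 4 and Napg with 3. Cplx2 encodes a complexin that clamps and primes SNAREs, and Pclo the active zone scaffold piccolo. Erc1 and Erc2 had 1 line each, and Bsn, Cadps, Cadps2, Cplx1, Doc2b and Exph5 were among the absent. With at least 2 lines the share was 11.4% (4 of 35), near the 11.2% of all protein-coding genes.

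Receptors and cAMP signalling, which tune secretion, had 12 of 21 genes listed (57.1%), close to the other synaptotagmins (55.6%) and the SNARE proteins (54.5%). With at least 2 lines the shares were 28.6%, 33.3% and 36.4% in the same order, against 11.2% of all protein-coding genes. The synaptotagmin and SNARE shares depend on which genes the lists take. The list of other synaptotagmins has 9 genes, and the family of 17, Syt7 included, was at 41.2%, or 23.5% with at least 2 lines. Syntaxins, mostly left out of the SNARE list, were at 13.3% and 6.67%, and VAMP genes at 57.1% in both settings. Adra2a, the adrenergic receptor that inhibits insulin release, had 5 lines, and Prkar1a, a regulatory subunit of protein kinase A, had 3. Adcy8, Adcy9, the fatty acid receptor gene Ffar1 and the somatostatin receptor gene Sstr3 had 2 each. Chrm3, Creb1, Gcgr, Glp1r, Gnas and Pde3b were among the absent. The median number of lines was 1 in the SNARE, synaptotagmin and receptor lists and 0 in the other 5, against 0 over all protein-coding genes.

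In the authors' pathway table (KEGG), 12 of 290 pathways had at least 1 of the 9 genes in their input. In the authors' deposited table, 66.9% of all pathways had a corrected p below 0.05, so a small p there does not set a pathway apart. Slc2a2 was in 8 of the 12, Vamp2 in 5, Kcnj11 and Snap25 in 2 each, and Syt7 in none. The 4 genes without a line were in none, neither by their own ID nor through another ID mapped to them.

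Insulin secretion held 4 of the genes, Slc2a2, Kcnj11, Snap25 and Vamp2, more than any other pathway. The genes were chosen for their place in this process, so that rank is not a finding about m6A. It had 36 input IDs against 86 background genes, with p = 8.55e-05 and a corrected p of 2.51e-04 in the authors' deposited table, and ranked 99 of 290 by p. The 36 IDs map to 33 genes, 38.4% of the background number, against a median of 35.1% over all pathways. Besides the 4, they include 6 adenylyl cyclases (Adcy3, Adcy5, Adcy6, Adcy7, Adcy8 and Adcy9), the kinase genes Prkaca, Prkca and Camk2b, the transporter gene Slc2a1, the receptors Cckar and Ffar1 with the G proteins Gnaq and Gnas, the sodium pump gene Atp1b3, Rab3a and Pclo, 4 transcription factors (Pdx1, Atf4, Creb3 and Creb3l2), the hormone genes Ins1 and Gcg, and 3 subunits of the large-conductance potassium channel (Kcnma1, Kcnmb1 and Kcnmb4).

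Not every gene in that input was listed itself. Of the 36 IDs, 6 belong to another gene model that the authors mapped to the pathway gene, and 3 of the 33 genes entered only in this way. Kcnmb4 entered through the opposite-strand transcripts Kcnmb4os1 (1 line) and Kcnmb4os2 (2 lines), Kcnma1 through 4930519K11Rik (2 lines), and Gnas through Gm20721 (2 lines). Slc2a1 and Pclo were counted once by their own ID and once by another, Gm12868 and Gm26918. Slc2a2, Kcnj11, Snap25 and Vamp2 entered by their own IDs.

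**Figure D4:**
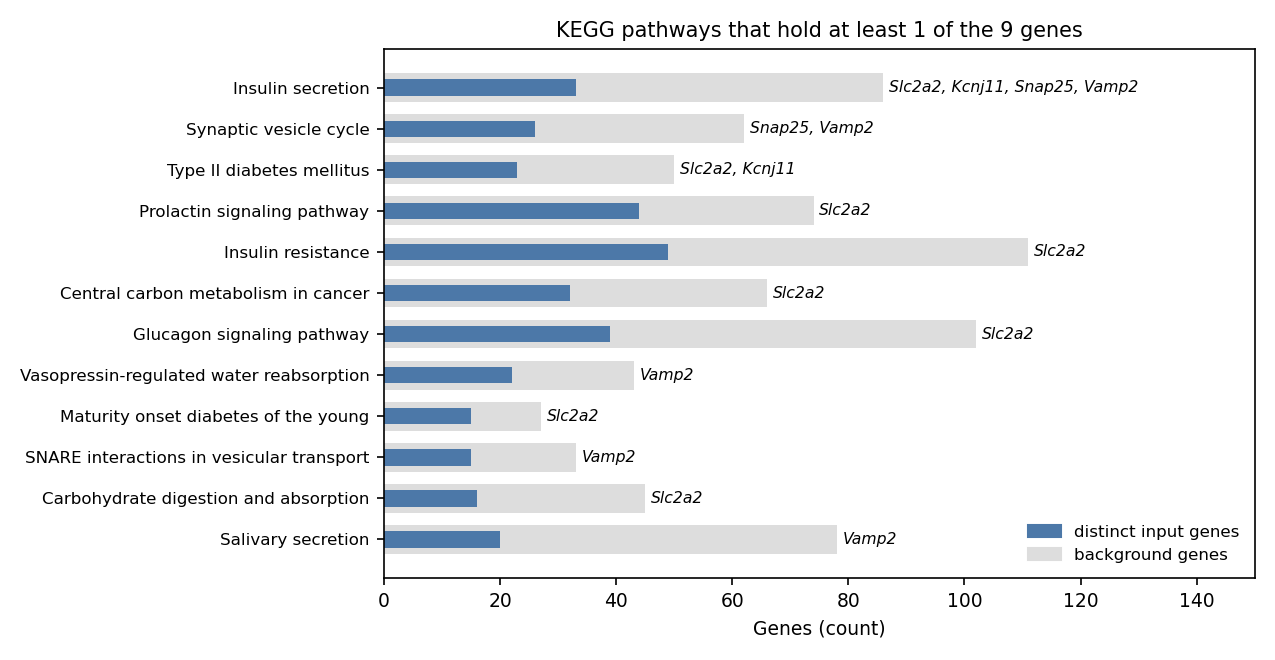
Distinct input genes (narrow blue bars) and background genes (wide grey bars) on a count axis for the 12 KEGG pathways whose input holds at least 1 of the 9 genes, named at the right. Insulin secretion held 4 of the genes, and Synaptic vesicle cycle and Type II diabetes mellitus held 2 each.

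Type II diabetes mellitus held the sensing and channel genes Slc2a2 and Kcnj11, with 23 input IDs for 23 genes against 50 in the background, p = 5.56e-04 and a corrected p of 0.00131 in the authors' deposited table. The other input genes include Hk3, Hkdc1 and Pkm of glucose metabolism, the insulin receptor substrates Irs1 and Irs2, Socs1, Socs2 and Socs3, Mafa, Pdx1, Ins1 and Cacna1b. Cacna1a was counted there through Gm16183 (1 line) and Pik3cb through Gm12978 (4 lines), neither by its own ID. Calcium channels thus entered this pathway by Cacna1b and by a model mapped to Cacna1a, and not by Cacna1c or Cacna1d.

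Synaptic vesicle cycle held the fusion genes Snap25 and Vamp2, with 29 input IDs for 26 genes against 62, p = 9.06e-05 and a corrected p of 2.63e-04 in the authors' deposited table. Its other input genes include Unc13a, Cplx2, Rab3a, Nsf and Stx2. Stx3 was counted there through Gm379 (2 lines). SNARE interactions in vesicular transport held Vamp2 of the 9 genes, with 16 IDs for 15 genes against 33 and p = 0.00245 in the authors' deposited table. Its input also has Vamp3, Vamp8, Snap29, Stx2 and Stx8, and Stx3 through the same Gm379.

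In the Gene Ontology (GO) table, 669 of 16568 terms held at least 1 of the 5 listed genes. The p-value of every term is 1 in the authors' deposited table, so none is called (0 of 16568, 0.0%) and terms are described by counts. Snap25 was in 313 terms, Kcnj11 in 294, Vamp2 in 291, Syt7 in 271 and Slc2a2 in 79. These numbers rest on how fully a gene is annotated and not on m6A. The 2 SNARE genes shared most, with 181 terms in common, 57.8% of those of Snap25 and 62.2% of those of Vamp2. Syt7 shared 146 with Vamp2 and 142 with Snap25. Kcnj11 shared 134 with Snap25 (45.6% of its own) and 42 with Slc2a2 (14.3% of its own, but 53.2% of the 79 of Slc2a2).

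**Figure D5:**
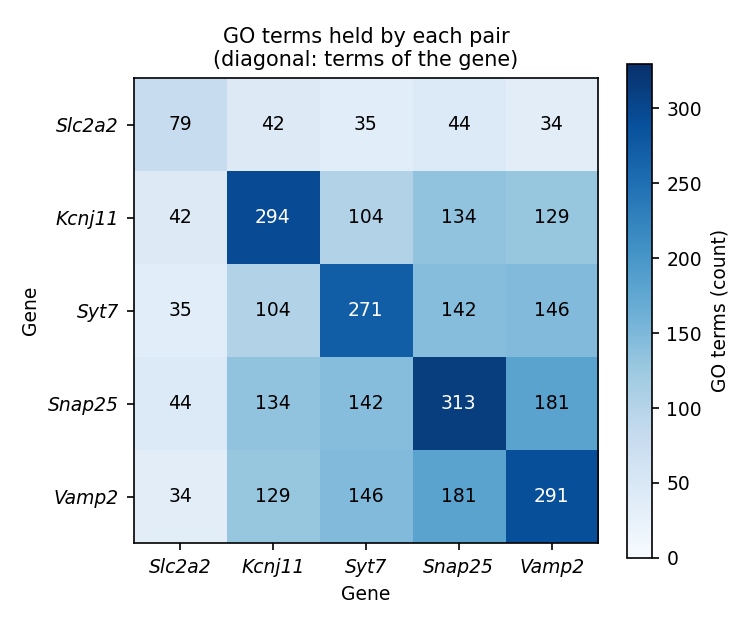
Number of GO terms (colour and printed count) that list both genes of a pair among the 5 listed genes, with each gene's own number of terms on the diagonal. Snap25 and Vamp2 shared 181 terms, and Slc2a2, with 79 terms in all, shared 34 to 44 with each of the others.

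By number of the 5 genes held, 364 terms held 1, 137 held 2, 94 held 3, 42 held 4 and 32 held all 5. The terms that held all 5 were broad, with 1079 to 17413 background genes. The 10 smallest of them were cell junction, ion transport, organic substance transport, vesicle, cytoplasmic vesicle, intracellular vesicle and 4 terms of cell projections. In these, 26.0% to 32.3% of the background genes had a peak, while the 5409 distinct IDs in the whole GO table make 26.0% of its 20770 background genes. The table itself gives 10022 genes with a peak (48.3%), a number above that of its own distinct IDs that the table does not explain.

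The smallest terms of each gene held few others. ATP-activated inward rectifier potassium channel activity had Kcnj11 as 1 of 3 genes, and carbohydrate utilization had Slc2a2 as 1 of 2. The complex of synaptobrevin, SNAP-25, syntaxin 1A and complexin I had Snap25 and Vamp2 as 2 of 4 genes, and in the like complex with complexin II 3 of 4 genes had a peak, these 2 among them. Vesicle-mediated cholesterol transport had Syt7 as its only gene.

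Terms close to each step, chosen after their counts were seen, differed in the share of genes with a peak. Sensing terms had 38.1% for glucose transmembrane transporter activity (8 of 21, Slc2a2 among them), 28.2% for glucose transmembrane transport (35 of 124) and 40.4% for response to glucose (92 of 228, with Kcnj11 and Vamp2). Potassium channel terms had 26.4% for potassium channel activity (32 of 121), 29.7% for potassium channel complex (27 of 91) and 30% for inward rectifier potassium channel activity (6 of 20). In that last term the genes were Kcnj11, Kcnj5, Kcnj6, Kcnj14, Kcnh2 and Kcnh6.

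Calcium channel terms lay below 26.0%. Calcium channel activity had 22 of 111 genes (19.8%), voltage-gated calcium channel activity 6 of 45 (13.3%), the voltage-gated calcium channel complex 7 of 45 (15.6%) and the L-type complex 2 of 12 (16.7%), which were Cacnb3 and Cacng1. None of these terms held any of the 5 listed genes. Cacna1c and Cacna1d had no line and were among the genes with a peak of no GO term, so their absence here adds nothing further. Fusion terms lay above it, with SNARE complex at 17 of 46 (37.0%), SNARE complex assembly at 9 of 17 (52.9%), synaptic vesicle exocytosis at 37 of 87 (42.5%), calcium ion regulated exocytosis at 46 of 116 (39.7%) and exocytosis at 97 of 310 (31.3%). Lying above 26.0% is common, since 543 of the 669 terms that held a listed gene did so. Of these fusion terms, only SNARE complex assembly lay above the deposited 48.3%. The terms share genes, so they are not independent of each other.

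The term insulin secretion held Kcnj11 and Syt7, with 79 of 211 genes (37.4%), and regulation of insulin secretion held the same 2 genes, with 66 of 176 (37.5%). Slc2a2, Snap25 and Vamp2 were in neither. Negative regulation of insulin secretion held Kcnj11 (19 of 59). Insulin secretion involved in cellular response to glucose stimulus had 35 of 85 genes (41.2%), and none of the 5 listed genes was among them. The shares of these terms lay above the 26.0% of distinct IDs, as did 543 of the 669 terms with a listed gene, and below the deposited 48.3%. The GO and KEGG tables thus put different genes of the 9 under insulin secretion, with Kcnj11 as the only one in both.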

How the data were processed

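m6A-seq was done on MIN6 cells with a GR or a control vector, with 1 IP and 1 input library per arm (fragments of about 100 nt, read pairs of 150 bp, per the labels' protocols). BWA 0.7.12, HOMER 4.9.1 and the build mm10 are named in the submitters' processing notes. How differential peaks were called, and at which thresholds, is not given in the sources used here. The gene table deposited by the authors has no header and no measured value. Counts per pathway and per term are those the authors deposited. KEGG p-values were computed by the authors with a hypergeometric or Fisher test and Benjamini-Hochberg adjustment, per the file headers.

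Genes were matched by Ensembl ID through a reference table (9217 of 9225 IDs had a name), and spans came from RefSeq, GRCm38.p6. A gene was listed with at least 1 line. Long gene lists of GO terms ran over onto 63 further lines, which were joined. Python 3.11.15 and Matplotlib 3.10.9 were used, and the readers were tested on simulated data. No member is in the authors' autophagy peak table. The 9 genes, the lists and the rules were chosen with earlier results of these data known, and families and topical GO terms after counts were seen. In each list all listed genes were named where 6 or fewer, otherwise the 6 with most lines, with up to 6 absent genes in alphabetical order; pathways with 2 or more of the genes were named, and GO terms with most of the genes or fewest background genes. Some genes that this rule names are not reported here. Other genes named were chosen after their values were seen. Alternatives were matching by deposited symbol, at least 2 lines, identical lines counted once, distinct Entrez genes, named genes only, other GO totals and GO terms of 10 to 500 genes.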

Additional observations from a re-analysis of the deposited data

How the results depend on the processing

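Matching by deposited symbol changed neither the 5 listed genes nor the 55 of 148 in the pathway lists. With at least 2 lines, 4 of the 9 genes were listed (Snap25 dropped out), 21 of the 148, and 11.2% of all protein-coding genes in place of 25.2%; the share was 26.7% over named genes. Glucose uptake and metabolism (5.26%) and calcium stores (6.67%) then lay below the 11.2%, SNARE regulators (11.4%) near it, and calcium channel subunits (15.4% of 26) above it. Of the families, which were added after the data were seen, Kcnj went to 6.67% and Syt to 23.5%. None of the 5 potassium and other electrical channels and none of the SNAP25 family had 2 lines, whereas all 4 listed VAMP genes did. Identical lines counted once leave 1 line for each listed gene. Of the 669 GO terms, 384 had 10 to 500 background genes. In all, 17 lay above the deposited 48.3% share and 543 above the 26.0% share of distinct IDs, so a statement that a term is above background depends on the total. No paired analysis was possible because there is 1 library of each kind per arm and no value per library. Depth is unknown, and absence from the gene table does not show that a transcript lacks a differential peak.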

Other observations

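The remaining pathways that held 1 of the 9 genes were mostly those of Slc2a2: prolactin signaling, insulin resistance, central carbon metabolism in cancer, glucagon signaling, maturity onset diabetes of the young, and carbohydrate digestion and absorption. Maturity onset diabetes of the young had 16 input IDs for 15 genes against 27 in the background, with p = 4.94e-04 in the authors' deposited table. Its input names the beta-cell transcription factors Pdx1, Mafa, Nkx2-2, Nkx6-1, Pax6, Hnf4a and Foxa2 beside Ins1 and Slc2a2. Neurod1 had no line of its own and was counted there through Gm26755 (2 lines), and Nr5a2 through Gm18981 (1 line), the pseudogene whose bounds, 118617626 to 118619224 on chromosome 6, lie inside Cacna1c.

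Vamp2 was also in vasopressin-regulated water reabsorption (23 IDs against 43) and in salivary secretion (23 against 78), where the corrected p was 0.0568 in the authors' deposited table. Salivary secretion was the only one of the 12 pathways with a corrected p above 0.05.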
